A study of Saccharomyces cerevisiae with 24 samples.

Results

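The karyopherins are the receptors that carry proteins and RNA through the nuclear pore, and 10 of their genes in budding yeast are described here over 1 metabolic cycle. The genes are KAP95, KAP104, KAP114, KAP120, PSE1 (also named KAP121), KAP122, KAP123, SRP1, CRM1 and MSN5. They were chosen by name as nuclear transport receptors, with earlier results of these libraries known, and make up 10 of the 6562 genes in the deposited expression table. All of them had a mean high enough to be tested.

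The study followed nucleosome positions and RNA output through the metabolic oscillation of Saccharomyces cerevisiae strain CEN.PK in minimal medium. No genotype beyond the strain and no added agent is named in the labels. RNA was sequenced from 1 library at each of 12 times, at 0, 20, 60, 110, 140, 180, 200, 210, 220, 230, 240 and 260 min. The 12 MNase-seq samples of the same times were not analysed here.

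Karyopherins bind a cargo on one side of the nuclear pore and release it on the other, and the small GTPase Ran gives the direction. Ran is bound to GTP in the nucleus, where it strips cargo from importins and joins exporters to theirs, and it is bound to GDP in the cytoplasm. Each receptor serves its own set of cargo, such as ribosomal proteins, histones, transcription factors or preribosomes. In the metabolic cycle, a culture of slow-growing cells swings together between low and high oxygen use, and genes for ribosome production are known to be expressed in a short part of each swing.

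Values are in RPKM, a read density per gene length and library size, obtained by dividing the deposited signal by an estimated read length. Being per length, levels may be compared between genes. Depth was estimated at 4365000 reads at 20 min to 5961000 at 0 min, and the most abundant 10 genes held 5.74% of reads at 240 min to 13.1% at 20 min. With 1 library per time, no error between cultures can be given, and errors below are the scatter of neighbouring libraries about a curve or a mean. The libraries at 20, 220, 230 and 260 min hold most of the extremes: 20 min was the lowest library for 26.1% of all genes tested and 260 min for 19.9%, and 220 min was the highest for 17.5% and the lowest for 21.6%. ACT1, the actin gene, ran from 825 to 1627 RPKM and did not pass the test of change over time (fitted range 0.54 ± 0.35 on the log2 scale, SE, limma adjusted p = 0.594). In a whole culture, fewer cells expressing a gene and less RNA of it per cell cannot be told apart.

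KAP123, PSE1, KAP104, KAP95 and KAP122, all importins, were higher at 220, 230 and 240 min than at 260, 0 and 20 min. The difference was 10.8-fold for KAP123 and 1.81-fold for KAP95, the largest and the smallest of these 5. SRP1, CRM1, KAP120, KAP114 and MSN5 did not pass this test, so importins and exporters are both among the genes that were not called. In the same comparison, 28.1% of all genes tested were called higher and 22.5% lower, so 5 of 10 higher and 0 of 10 lower is to be read against those shares. The plot of member levels by time shows the narrow peak of 2 of these genes beside the near-level course of others.

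**Figure D1:**
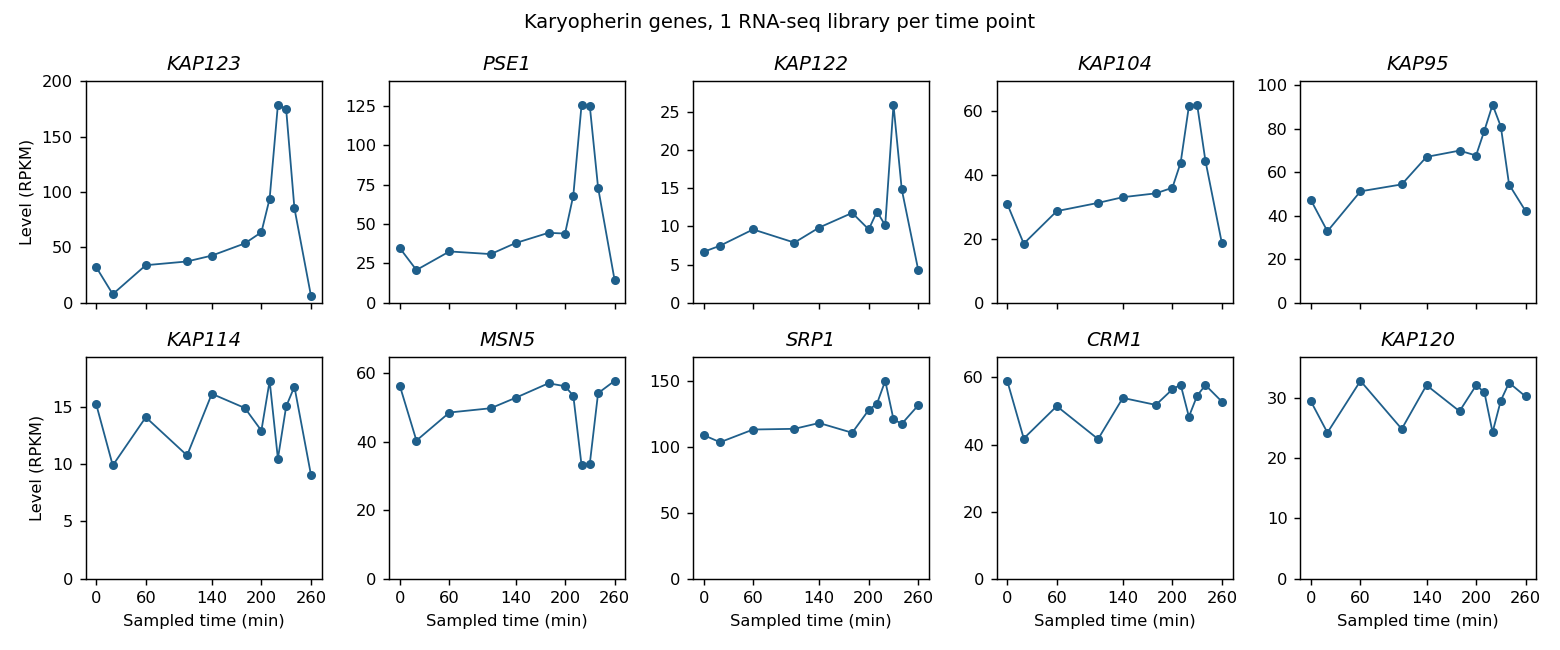
Level in RPKM of each of the 10 karyopherin genes against sampled time in minutes, 1 panel per gene with its own linear axis from 0, and 1 point per library joined by straight lines. KAP123 runs from 6.43 (260 min) to 179 RPKM (220 min), while SRP1 stays between 104 and 150 RPKM.

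KAP123 (YER110C, R64 chromosome V, 378762 to 382103) encodes an importin of ribosomal proteins and histones that arrive in the nucleus soon after they are made. Its levels were 32.1, 7.74, 33.9, 37.3, 42.6 and 53.6 RPKM at 0, 20, 60, 110, 140 and 180 min. They were 63.7, 94.1, 179, 175, 85.5 and 6.43 RPKM at 200, 210, 220, 230, 240 and 260 min. The gene thus climbed from 20 to 220 min without a step down, and it was at its lowest 40 min after its highest.

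The 3 libraries from 220 to 240 min, at 146 ± 52.9 RPKM (SD, n = 3 times), all lay above those at 260, 0 and 20 min, at 15.4 ± 14.5 RPKM. The log2 difference of KAP123 was 3.44 ± 0.49 (SE), or 10.8-fold, with a limma adjusted p = 0.000345. The steepest step was between 240 and 260 min, where the level was 13.3-fold lower at the later time, against a median log2 step of -0.29 over all genes tested. The level at 0 min was 4.99-fold above that at 260 min. At 260 min, the gene's value rests on about 110 reads.

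PSE1 (YMR308C, R64 chromosome XIII, 888952 to 892221) encodes an essential importin, related to Kap123, with ribosomal proteins and transcription factors such as Pho4 among its cargo. Its levels were 34.6, 20.8, 32.6, 30.9, 37.9 and 44.4 RPKM from 0 to 180 min. They were 43.9, 68.1, 126, 125, 73.1 and 14.4 RPKM from 200 to 260 min. As with KAP123, the peak held at 220 and 230 min, and the lowest library of the course was 260 min.

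The level of PSE1 was 108 ± 30.1 RPKM from 220 to 240 min and 23.3 ± 10.3 RPKM at 260, 0 and 20 min (SD, n = 3 times each). These libraries did not overlap, and the log2 difference was 2.21 ± 0.32, or 4.62-fold (limma adjusted p = 0.000354). Of all genes tested, 28.5% were higher without overlap in this comparison and 21.3% were lower without overlap.

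KAP104 (YBR017C, R64 chromosome II, 270947 to 273703) encodes the importin of the mRNA-binding proteins Nab2 and Hrp1. Its levels were 31.0, 18.5, 28.7, 31.3, 33.1 and 34.3 RPKM from 0 to 180 min, and 36.0, 43.9, 61.6, 62.0, 44.5 and 18.6 RPKM from 200 to 260 min. The peak was at the same 2 libraries, with a flatter climb before it. The mean of 220 to 240 min was 56.0 RPKM and that of 260, 0 and 20 min was 22.7 RPKM, with no overlap and a log2 difference of 1.29 ± 0.23 (2.45-fold, limma adjusted p = 0.000962).

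KAP95 (YLR347C, R64 chromosome XII, 823828 to 826413) encodes importin beta, which carries cargo with a classical nuclear localization signal through the adaptor Srp1. Its levels were 47.2, 32.9, 51.2, 54.4, 67.1 and 70.0 RPKM from 0 to 180 min, and 67.7, 79.1, 91.1, 81.1, 54.4 and 42.2 RPKM from 200 to 260 min. This was a broader course, which stood at 67.1 RPKM by 140 min. The log2 difference between 220 to 240 min and 260, 0 and 20 min was 0.86 ± 0.23 (1.81-fold, limma adjusted p = 0.00816), again without overlap.

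KAP122 (YGL016W, R64 chromosome VII, 461666 to 464911) encodes the importin of the general transcription factor TFIIA and had the lowest mean of the 10 genes, 10.8 RPKM. Its levels were 6.67, 7.48, 9.61, 7.88, 9.85 and 11.8 RPKM from 0 to 180 min, and 9.61, 11.9, 10.1, 26.0, 14.9 and 4.28 RPKM from 200 to 260 min. The 220 min library, the peak of KAP123, lay below that of 210 min here, and 230 min stood far above all others. The log2 difference was 1.27 ± 0.31 (2.40-fold, limma adjusted p = 0.00533), and it was 0.93 with an adjusted p of 0.0236 without the 230 min library. Depth was low for this gene, at about 70.9 reads at 260 min.

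SRP1 (YNL189W, R64 chromosome XIV, 284260 to 285888) encodes importin alpha, the adaptor that reads the classical signal, and was the most abundant of the 10 genes in mean level. Its levels were 109, 104, 113, 114, 118 and 111 RPKM from 0 to 180 min, and 128, 133, 150, 121, 118 and 132 RPKM from 200 to 260 min. Its highest libraries were 220, 210 and 260 min, and at the last of these its partner KAP95 was at its second lowest. Its log2 difference between the late peak times and 260, 0 and 20 min was 0.17, with a 95% interval of -0.22 to 0.57 (limma adjusted p = 0.443).

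CRM1 (YGR218W, R64 chromosome VII, 932541 to 935795) encodes the main exporter of proteins with a leucine-rich export signal, which also takes out the large preribosomal subunit through Nmd3. Its lowest level was 41.6 RPKM, at 110 min, and its highest 59.0 RPKM, at 0 min, with a median of 53.3 RPKM. The log2 difference was 0.07, with a 95% interval of -0.33 to 0.48 (limma adjusted p = 0.758). Values at 220 and 230 min, 48.3 and 54.6 RPKM, lay inside the range of the other libraries.

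KAP120 (YPL125W, R64 chromosome XVI, 313388 to 316486) encodes the importin of the ribosome assembly factor Rpf1. Its lowest level was 24.2 RPKM, at 20 min, and its highest 32.8 RPKM, at 60 min, with a median of 29.9 RPKM. Its log2 difference was 0.04, with a 95% interval of -0.37 to 0.45 (limma adjusted p = 0.881). The gene had the narrowest course of the 10, with a ratio of 1.35 between the highest and the lowest library.

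KAP114 (YGL241W, R64 chromosome VII, 45445 to 48459) encodes an importin of the TATA-binding protein and of histones H2A and H2B. Its lowest level was 9.07 RPKM, at 260 min, and its highest 17.2 RPKM, at 210 min. Its log2 difference was 0.29, with a 95% interval of -0.27 to 0.85 (limma adjusted p = 0.359). The libraries at 220 and 230 min, 10.5 and 15.0 RPKM, lay to either side of the mean of the 12.

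MSN5 (YDR335W, R64 chromosome IV, 1141168 to 1144842) encodes an exporter of phosphorylated proteins, Pho4, Mig1, Far1 and Ste5 among them. Its levels were 56.3, 40.4, 48.6, 49.8, 52.8 and 57.1 RPKM from 0 to 180 min, and 56.2, 53.4, 33.1, 33.7, 54.2 and 57.8 RPKM from 200 to 260 min. The lowest libraries were thus 220 and 230 min, the very times of the KAP123 peak, and the 240 min library was above the median again. The log2 difference was -0.36, with a 95% interval of -0.84 to 0.11 (limma adjusted p = 0.183). It passed as lower without the 240 min library (-0.59, limma adjusted p = 0.0214), after median-ratio scaling (-0.50, 0.0260) and after quantile normalization (-0.51, 0.0294).

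**Figure D2:**
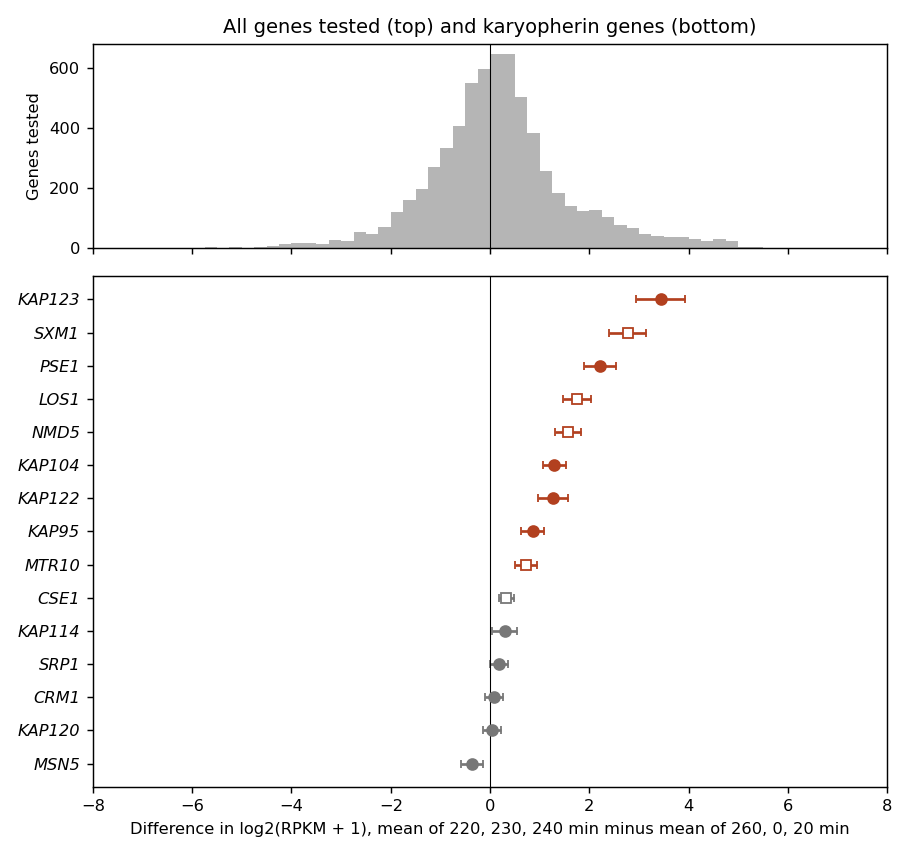
Difference in log2(RPKM + 1) between the libraries at 220, 230 and 240 min and those at 260, 0 and 20 min, as a histogram of all genes tested (top) and for 10 karyopherin genes (filled circles) and 5 others (open squares), with bars of 1 SE and with genes called by limma in red. KAP123 lies at 3.44 and PSE1 at 2.21, and the 5 lowest members, in grey, lie between -0.36 and 0.29.

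The median log2 difference of the 10 genes was 0.57, beside 0.12 over all genes tested. The 5 higher calls each held in all 19 alternatives to this fit that were run. The sign of the median of all genes did not: it was -0.01 after median-ratio scaling and -0.08 after quantile normalization. Of the genes called in this comparison, 55.6% were higher in the deposited scaling and 45.2% after quantile normalization, where the median of the 10 genes was 0.40.

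The same late libraries were also compared with those at 60, 110 and 140 min, the stretch before the late climb. PSE1 rose by 1.61 ± 0.32 (limma adjusted p = 0.00396), KAP123 by 1.85 ± 0.49 (0.0131) and KAP104 by 0.82 ± 0.23 (0.0158) on the log2 scale. These were 3 of the 10 genes higher and 0 lower, where 20.1% of all genes tested were higher and 18.4% lower. Without overlap between the 3 and 3 libraries, 4 of the 10 were higher, KAP122 besides those named, and 0 were lower, against 29.6% and 22.7% of all genes tested. KAP95 (0.36, 95% interval -0.13 to 0.85) and KAP122 (0.74, 0.07 to 1.41, limma adjusted p = 0.0761) were not called.

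These calls were less stable. Without the 230 min library, KAP123 (limma adjusted p = 0.0536) and KAP104 (0.0622) were no longer called, and KAP104 was also lost without 60 min (0.0599). KAP95 (limma adjusted p = 0.0425) and, as lower, MSN5 (0.0299) were called without 240 min, and KAP122 was called without 220 min (0.0232) and after quantile normalization (0.0430).

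Between 260, 0 and 20 min and 60, 110 and 140 min, 0 of the 10 genes were called by limma, where 3.05% of all genes tested were higher and 3.65% lower. At an unadjusted p under 0.05 there were 2 of the 10, a share near that of all genes tested, 1396 of 6493. KAP95, KAP122 and KAP123 were lower without overlap and 0 were higher, against 15.8% lower and 10.2% higher of all genes tested. The 2 genes past the unadjusted threshold were KAP123, with a log2 difference of -1.59 ± 0.49 (limma adjusted p = 0.0744), and KAP95, with -0.49 ± 0.23 (0.229). At 0 min KAP123 stood at 32.1 RPKM, close to its level at 60 min, and without that library it was called at -2.27 (limma adjusted p = 0.00479), as was KAP104 at -0.71 (0.0320).

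The test of any smooth change over the 12 times used a spline in minutes in place of chosen blocks. KAP123 (fitted range 4.09 ± 0.78 on the log2 scale, limma adjusted p = 0.0135), PSE1 (2.55 ± 0.50, 0.0137), KAP104 (1.41 ± 0.37, 0.0448) and KAP95 (1.01 ± 0.25, 0.0497) passed it. This was 4 of 10 genes, where 20.7% of all genes tested passed. KAP122 had a fitted range of 1.37 ± 0.52 (limma adjusted p = 0.186), and MSN5 of 0.53 ± 0.25 (0.451). The fitted ranges of KAP114, SRP1, CRM1 and KAP120 were 0.50, 0.31, 0.27 and 0.16, with limma adjusted p from 0.696 to 0.987. The median fitted range of the 10 genes was 0.77, below the 1.10 of all genes tested.

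The 220 min library decided much of this test. Without it, 0 of the 10 genes passed, with limma adjusted p = 0.0568 for KAP123 and 0.0636 for PSE1. KAP95 was lost without any 1 library other than 0 min (limma adjusted p = 0.0572 to 0.120) and in 6 of the alternatives that kept every library, and KAP104 was lost without any 1 of 9 libraries (limma adjusted p = 0.0513 to 0.138). With 3 degrees of freedom for the curve, 0 of the 10 passed, and 145 genes did in the whole table.

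Of the 10 genes, 6 were highest at 220 or 230 min and 8 were lowest at 20 or 260 min. Among all genes tested the shares were 33.8% and 46.0%. The 20 min library was low for long genes: the 471 genes of at least 3000 bases had a median log2 deviation from their own mean of -0.41 there, against -0.26 for shorter genes. In the other libraries this difference lay between -0.07 and 0.07. The members are long, 1629 to 3675 bases against a median of 1193 in the table, and the part of length in their low values at 20 min was not tested.

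In mean level the order of the 10 genes was SRP1, KAP123, KAP95, PSE1, CRM1, MSN5, KAP104, KAP120, KAP114 and KAP122. SRP1, at 121 ± 12.9 RPKM (SD over the 12 libraries), was the highest of the 10 in every library except 220 and 230 min. KAP123 stood above it in both of those, and PSE1 at 230 min. From KAP123 at 67.6 ± 57.5 RPKM down to MSN5 at 49.4 ± 8.89 RPKM, neighbours differed by less than their spread over time. KAP104 (37.0 ± 14.1 RPKM) and KAP120 (29.2 ± 3.23 RPKM) also lay within the spread of KAP104, as did KAP114 (13.5 ± 2.84 RPKM) and KAP122 (10.8 ± 5.49 RPKM) within that of KAP122. The step from KAP120 to KAP114 was wider than the spread of either.

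The make-up of the karyopherin RNA therefore differed by time. The 10 genes and 5 further karyopherin genes, MTR10, SXM1, NMD5, LOS1 and CSE1, summed to 379 (20 min) and 993 RPKM (220 min). KAP123 held 18.0% of that sum at 220 min and 1.48% at 260 min. The share of SRP1 was 15.1% at 220 min and 30.4% at 260 min. MSN5 went from 3.34% at 220 min to 13.3% at 260 min. KAP123 and PSE1 together held 30.9% at 230 min, and 4.81% at 260 min.

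Across the 12 shared libraries, the log2 levels of KAP104 and KAP123 had a correlation of r = 0.988, of KAP104 and PSE1 0.983, and of KAP123 and PSE1 0.964. CRM1 and KAP120, both near level, had r = 0.808, and MSN5 and PSE1 had r = -0.55. These values describe libraries that share their depth and their composition.

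Partners and other pairs of karyopherin genes were compared by their ratio in each library. A permutation test of the time order was run in 5 pairs, with p-values adjusted over those 5. The importin alpha to beta ratio, SRP1 over KAP95, ran from 1.49 at 230 min to 3.16 at 20 min and was 3.13 at 260 min. The spline explained 78.0% of the variance of the log2 ratio (permutation test, adjusted p = 0.04997). This call lies at the threshold and was lost in 7 of the alternatives that kept every library and without any library other than 0, 20 or 200 min (permutation adjusted p up to 0.205).

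KAP123 over KAP114 ran from 0.709 at 260 min to 17.1 at 220 min. The spline explained 83.2% of its variance (permutation test, adjusted p = 0.0272). The fitted range was 4.09 for KAP123 and 0.50 for KAP114, which was not called, so this ratio is not separate from the course of KAP123. The call was lost with 3 degrees of freedom (0.141) and without any 1 of the libraries from 60 to 180 min or from 220 to 260 min (permutation adjusted p up to 0.126).

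Inside the importins of ribosomal proteins, KAP123 over PSE1 was 0.372 at 20 min, 0.446 at 260 min and at most 1.45, at 200 min. The permutation test gave an adjusted p of 0.105 with 70.7% of variance explained, and it passed without 0 min (0.00110) or 20 min (0.00957). The ratio of the exporters CRM1 and MSN5 was between 0.836 and 1.08 at 10 of the times, but 1.46 at 220 min and 1.62 at 230 min (permutation test, adjusted p = 0.127, and 0.0499 with time point number as the time scale). SRP1 over CSE1, the receptor that returns importin alpha to the cytoplasm, lay between 3.09 and 4.70 (permutation test, adjusted p = 0.320).

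**Figure D3:**
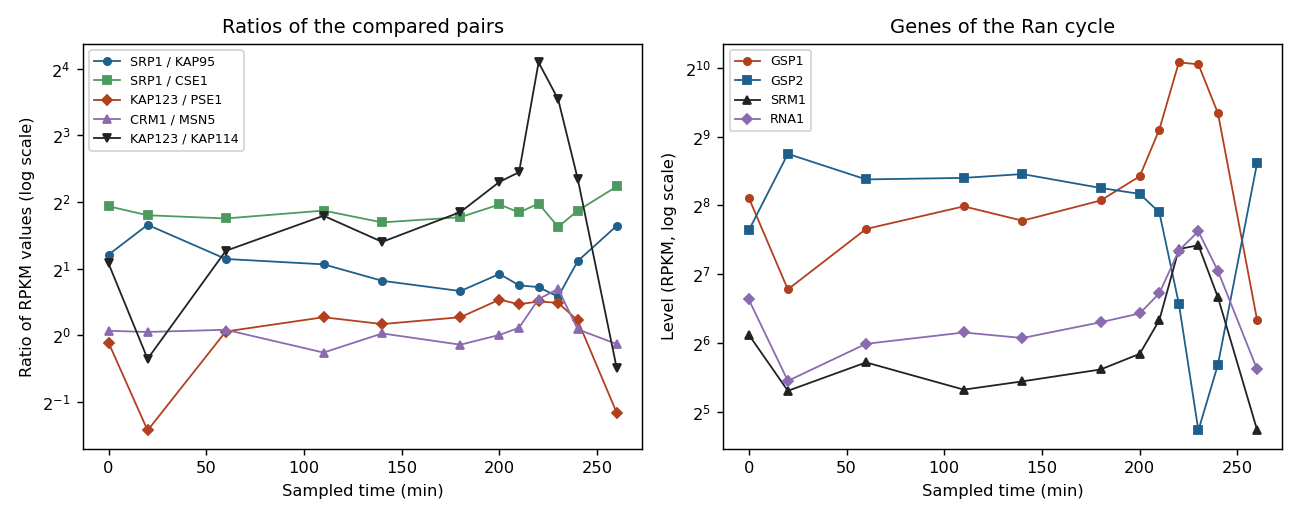
Ratio of RPKM of 5 gene pairs (left) and RPKM of the Ran cycle genes GSP1, GSP2, SRM1 and RNA1 (right) against sampled time in minutes, both on log axes to base 2, with 1 point per library. KAP123 over KAP114 reaches 17.1 at 220 min, and GSP2 falls to 26.5 RPKM at 230 min, where GSP1 is at 1060 RPKM.

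Of the 5 further karyopherin genes, SXM1, NMD5, LOS1 and MTR10 were called higher at 220 to 240 min than at 260, 0 and 20 min, and 0 were lower, against 28.1% and 22.5% of all genes tested. SXM1, an importin of ribosomal proteins and of the La protein Lhp1, had 105 RPKM (220 min) and 7.36 RPKM (260 min), with a log2 difference of 2.77 ± 0.37 (limma adjusted p = 0.000270). LOS1, the tRNA exporter, differed by 1.74 ± 0.28 and NMD5, an importin of TFIIS and Hog1, by 1.56 ± 0.26. MTR10, the importin of the mRNA-binding protein Npl3, differed by 0.72 ± 0.23 (limma adjusted p = 0.0192). CSE1 stayed between 28.0 and 39.2 RPKM and was not called (0.33 ± 0.16, limma adjusted p = 0.106).

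Against 60, 110 and 140 min, SXM1 (1.82 ± 0.37), NMD5 (1.21 ± 0.26) and LOS1 (1.17 ± 0.28) were higher by limma and 0 of the 5 were lower. Over all genes tested, 20.1% were higher and 18.4% lower. The spline test was also passed by SXM1 (limma adjusted p = 0.0133), NMD5 (0.0165) and LOS1 (0.0215), against 20.7% of all genes tested. These spline calls were lost without the 220 min library (limma adjusted p = 0.0617, 0.0708 and 0.0818) and with 3 degrees of freedom for the curve. Without 230 min, NMD5 (limma adjusted p = 0.0515) and LOS1 (0.0637) were lost too. The heat map of 15 genes sets their courses side by side.

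**Figure D4:**
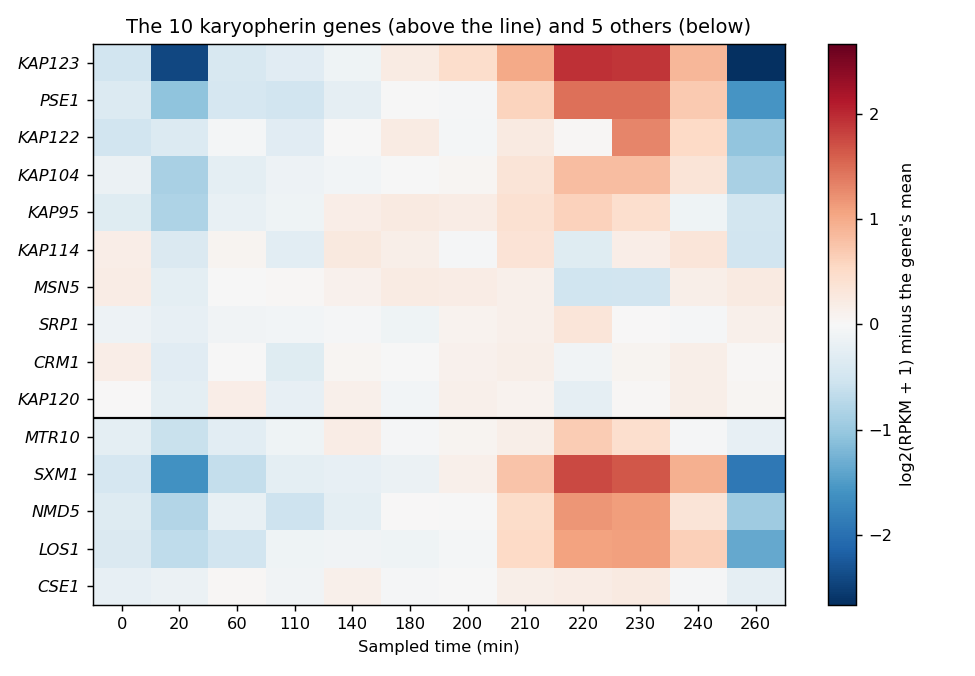
Log2 of RPKM + 1 of each of the 15 karyopherin genes in each of the 12 libraries (columns, in minutes), minus the mean of that gene. KAP123, SXM1, PSE1, NMD5 and LOS1 are high at 220 and 230 min and low at 20 and 260 min, while MSN5 is low at 220 and 230 min.

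The Ran cycle was examined as 9 genes, and 5 of them were higher and 1 was lower at 220 to 240 min than at 260, 0 and 20 min, against 28.1% and 22.5% of all genes tested. GSP1, the main Ran gene, had 1081 RPKM (220 min) and 80.8 RPKM (260 min), with a log2 difference of 2.74 ± 0.42 (limma adjusted p = 0.000460). SRM1, the nucleotide exchange factor of Ran, differed by 1.74 ± 0.33 (0.00148 by limma), with 171 RPKM (230 min) and 26.7 RPKM (260 min). The other higher genes, named after their values were seen, were RNA1, the GTPase activator, and YRB1 and YRB2, Ran-binding proteins. They differed by 1.42 ± 0.29, 1.69 ± 0.30 and 0.61 ± 0.24 (limma adjusted p = 0.00184, 0.00107 and 0.0488), so the call of YRB2 lies near the threshold. RNA1 (limma adjusted p = 0.0685) and YRB2 (0.448) did not pass the spline test.

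GSP2, the second Ran gene, named here because it was the 1 gene called lower, ran opposite to GSP1. It had 430 RPKM (20 min) and 26.5 RPKM (230 min), and its log2 difference was -2.64 ± 0.40 (limma adjusted p = 0.000447). GSP2 did not pass the spline test (fitted range 2.90 ± 0.78, limma adjusted p = 0.0962). The ratio of GSP2 to GSP1 was 4.83 at 260 min and 0.0250 at 230 min. The GSP1 and GSP2 sequences are closely alike, so reads may have been split between them, and the part of this in their courses was not tested. Their sum ranged from 471 (260 min) to 1176 RPKM (220 min). NTF2, which brings Ran into the nucleus, MOG1 and YRB30 were not called (log2 differences 0.35, 0.08 and 0.00).

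Of 32 nucleoporin genes, which build the pore itself, 15 were higher at 220 to 240 min than at 260, 0 and 20 min, and 0 were lower, with a median log2 difference of 0.47. Over all genes tested, 28.1% were higher and 22.5% lower, and the median was 0.12. Their changes were smaller than those of KAP123 and PSE1, but their median lay near the 0.57 of the 10 karyopherin genes. POM34, a membrane nucleoporin, differed by 1.08 ± 0.26 (limma adjusted p = 0.00481) and NUP133, a scaffold nucleoporin, by 1.18 ± 0.23 (0.00176). POM34 and NUP133 were also the 2 of 32 that passed the spline test, with limma adjusted p = 0.0191 and 0.0297, a share below the 20.7% of all genes tested. That count was not stable. It was 0 without the 220 min library and 14 without 0 min, where 2521 genes passed in the whole table in place of 1343.

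Export of mRNA does not use a karyopherin but the receptor Mex67 with Mtr2, and 2 of 6 genes of that route were higher and 0 lower, against 28.1% and 22.5% of all genes tested. DBP5, the helicase that frees mRNA at the pore, differed by 1.63 ± 0.29 (limma adjusted p = 0.000990) and MEX67 by 1.05 ± 0.20 (0.00157). MTR2, SUB2, YRA1 and NPL3 were not called.

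Of the lists examined, the one on ribosomal cargo had the largest median change. It holds 11 genes for preribosome export factors and for chaperones that bring single ribosomal proteins to the ribosome. All 11 were higher at 220 to 240 min than at 260, 0 and 20 min, where 28.1% of all genes tested were higher and 22.5% lower. Their median log2 difference was 4.35, or 20.4-fold, beside 0.12 over all genes tested. All 11 also passed the spline test, against 20.7% of all genes tested. With 3 degrees of freedom for the curve, 0 of the 11 passed. ECM1, which helps large preribosomes leave the nucleus, had 248 RPKM (220 min) and 2.45 RPKM (260 min), and RRB1, the chaperone of ribosomal protein Rpl3, had 457 and 4.81 RPKM. Their fitted ranges were 5.53 ± 0.84 and 5.48 ± 0.75 (limma adjusted p = 0.00428 and 0.00415). The list was chosen with earlier results of these libraries known, so its direction is not independent evidence.

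Of 15 other cargo genes, 4 were higher and 1 was lower in that comparison, a share of higher genes near the 28.1% of all genes tested (22.5% lower), and 0 passed the spline test by limma (3 at an unadjusted p under 0.05). The called genes are named here after their values were seen, and the other 10 were not called. SPT15, the TATA-binding protein carried by Kap114, differed by 1.25 ± 0.22 (limma adjusted p = 0.000872), while KAP114 itself was not called. PHO4, STE5 and FAR1, cargo of Msn5, differed by 1.34, 0.82 and 2.43, and Pho4 is also cargo of Pse1. MIG1, also exported by Msn5, differed by -1.01 (limma adjusted p = 0.0349). NAB2 and HRP1, carried by Kap104, were not called. HRP1 had 44.5 RPKM (220 min) and 358 RPKM (230 min), so its neighbouring libraries differed widely.

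The genes of the table most like the mean course of the 10 members, each member scaled to the same mean and spread, were STN1 (r = 0.957 over the 12 libraries), LST4 (0.957), YBT1 (0.955), YMR013C-A (0.950) and STB6 (0.943). Among these, only STB6 passed the spline test (limma adjusted p = 0.0294, and 0.131 to 0.306 for the others). MSN5 was the member least like that mean (r = -0.03). Most like MSN5 itself were RIM20 (0.966), MRM2 (0.964) and RRI2 (0.956), each of them low at 220 and 230 min. RIM20, for example, had 18.3 RPKM (220 min) and 36.3 RPKM (240 min). As RIM20, MRM2 and RRI2 were picked for their likeness to MSN5, their low values at these times follow from the choice. They did not pass the spline test (limma adjusted p = 0.637, 0.458 and 0.155).

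The 10 genes lie on 8 chromosomes and 0 of them overlap another annotated gene in R64. CRM1, KAP114 and KAP122 share chromosome VII. The library kit does not mark the strand. No annotated gene lies opposite any member, and the nearest lies 131 to 563 bases away. Unannotated transcripts of the other strand were not examined.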

How the data were processed

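Per the labels' protocols, hot phenol was used to extract RNA and an NEBNext Ultra kit to prepare libraries. The submitters' processing notes name Bowtie2 and R64. The read counter is not given in the sources used here, nor is the annotation. As deposited by the authors, the table holds a signal for each gene and library, by its values a summed base coverage per gene length, scaled for depth. It was divided by a read length of 50, estimated from the values, and called RPKM, which no source states. A second deposited table holds each gene as a fraction of its maximum and was used only as a check. In the tables, 4 lines were empty. Of 6562 genes, 5891 matched the R64 annotation.

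The 6493 genes whose mean reached 1 RPKM were fitted as log2(RPKM + 1) with limma 3.58.1 under R 4.3.3, the prior variance following the mean. A natural cubic spline in minutes had 4 degrees of freedom. A second fit used 4 blocks of 3 times (260, 0, 20; 60, 110, 140; 180, 200, 210; 220, 230, 240 min). The libraries of a block are neighbouring times, not replicates, so p-values measure only spread among times. The block of 260, 0 and 20 min joins the end of the series to its start. This assumes that the cycle closes there, which the spline did not assume and which was not tested. Folds are on the log2(RPKM + 1) scale, which understates low genes. The Benjamini-Hochberg adjustment of p ran over every gene tested, and 0.05 was the threshold. Ratios of pairs were tested with 100000 random time orders. Both fits were tested on simulated data. Members, blocks and lists were chosen with earlier results of these data known. Beside the members and 5 other karyopherins, the rule named the 2 genes with the widest fitted range among those called in each list (mean at least 10 RPKM), the genes most alike in course, and ACT1. Alternatives changed the spline, the pseudocount, the filter, the scaling, the division by read length and the libraries included.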

Additional observations from a re-analysis of the deposited data

How the results depend on the processing

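No paired analysis was possible because each time has 1 library. The 5 higher calls between 220 to 240 min and 260, 0 and 20 min held under each alternative run, and no called value changed sign. Signs turned in that comparison for members that were not called, with log2 differences of -0.09 to 0.18 for CRM1, -0.06 to 0.50 for KAP114 and -0.19 to 0.15 for KAP120. The count of the 10 genes called there was 5 to 6 when 1 library was left out, 1 to 5 against 60 to 140 min, and 0 to 2 between 260, 0, 20 min and 60 to 140 min. The count that passed the spline was 0 to 4 when 1 library was left out, 0 with 3 degrees of freedom and 2 after quantile normalization. Over all genes, 1343 passed, against 145 with 3 degrees of freedom, 2589 with 5, 2657 with time point number as the scale, and 655 to 2521 when 1 library was left out. The permutation adjusted p of SRP1 over KAP95 was 0.0689 with 3 degrees of freedom, 0.0589 with 5, 0.0501 with time point number, 0.0501 with a pseudocount of 0.1, 0.0511 after median-ratio scaling, 0.0561 after quantile normalization, 0.0502 for undivided values, and 0.0154 to 0.205 when 1 library was left out. That of KAP123 over KAP114 was 0.141 with 3 degrees of freedom and 0.00225 to 0.126 when 1 library was left out, of CRM1 over MSN5 0.0499 with time point number and 0.110 to 0.235, of KAP123 over PSE1 0.00110 to 0.209, and of SRP1 over CSE1 0.141 to 0.854. The cause of these shifts was not tested. Depth limits most the values with the fewest estimated reads, such as KAP122 (70.9 at 260 min), KAP123 (113 at 20 min and 110 at 260 min) and KAP114 (130 at 20 min and 140 at 260 min).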
